A study of Mus musculus with 6 samples.

Results

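The phospholipase C genes of mouse pancreatic acinar cells were described in 6 RNA sequencing libraries, 3 from control and 3 from Trip12 knockout animals. The 10 members, Plcb1, Plcb3, Plcb4, Plcg1, Plcg2, Plcd1, Plcd3, Plce1, Plch1 and Plch2, are among 55414 genes in the tables and among 13115 that were tested. They were chosen by family membership around Plch2, and Plch2 had been picked because its level differed between these same groups. Their differences between knockout and control are therefore given as a description, and nothing is supported with them. Genes of the same pathway that are not members were tested. Adjusted p-values come from edgeR's quasi-likelihood model with Benjamini-Hochberg correction over all tested genes, and a gene was called under 0.05.

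Phospholipases C cut the membrane lipid PIP2 into the soluble messenger IP3 and the membrane messenger diacylglycerol. IP3 opens calcium channels of the endoplasmic reticulum, and diacylglycerol activates protein kinase C. In acinar cells, acetylcholine and cholecystokinin receptors use this route, through G proteins of the Gq class, to start the release of digestive enzymes.

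Controls were adult Pdx1Cre;Trip12+/+ mice and knockouts adult Pdx1Cre;Trip12fl/fl mice, so that Cre is shared by both groups. TRIP12 is an E3 ubiquitin ligase. The Pdx1 promoter is active in the progenitors of the pancreas, so that Cre reaches duct and islet lineages as well as acinar cells. The labels call the 3 libraries of a group biological replicates and do not say whether each came from 1 animal, so p-values measure the spread between these preparations only. Gene counts ran from 31019500 to 34041901 per library, and 1 CPM (the counts scaled to a common library size with TMM factors) stood for 24.3 to 37.3 counts. Triplets of values are given below in the order of replicates 1 to 3. Trip12 itself was read at 29.0, 22.3 and 26.4 CPM in the controls and at 14.4, 14.7 and 13.0 CPM in the knockouts, every knockout being lower. All 15 acinar markers had counts in every library, and their summed level was 484456 to 657167 CPM in control and 405393 to 418080 CPM in knockout, without overlap. Its part in the results on the members was not tested. The libraries also differed in sex. Control replicate 1 and the knockouts held 1205 to 1784 counts of Y-linked genes and at most 5 of Xist, while control replicates 2 and 3 held 2118 and 2440 counts of Xist. Ratios to control replicate 1, the only male control, are therefore given beside the main results. In bulk samples, fewer cells of a type and less RNA per cell cannot be told apart.

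In control cells the family was led by Plcb4, and Plch2 was its least abundant member. Levels between genes were compared as CPM per kb of exon, with the exon length taken from GENCODE M21. Plcb4 stood at 3.79 CPM per kb ± 1.37 (SD, n = 3), from 2.49 to 5.22, above the range of every other member. Plcb3 followed at 1.42 CPM per kb ± 0.0166, then Plcg1 at 1.12 ± 0.328, Plcd1 at 0.920 ± 0.114 and Plcb1 at 0.815 ± 0.172. Neighbours among these 4 had overlapping ranges over the 3 controls and were not separated. Plcg2 stood at 0.483 CPM per kb ± 0.293, Plch1 at 0.265 ± 0.0468 and Plcd3 at 0.223 ± 0.113, again each with a range overlapping that of its neighbour. Plce1, at 0.0715 CPM per kb ± 0.0506, and Plch2, at 0.0382 ± 0.00602, closed the order, and their ranges overlapped too.

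In knockout cells, per kb of exon, the first 5 places held the same genes in the same order, and Plch2 took place 8. Plcb4 stood at 2.11 CPM per kb ± 0.390 (SD, n = 3), again above the range of Plcb3 at 1.54 ± 0.102, although Plcg1 at 1.53 ± 0.393 reached into its range. Plch2 stood at 0.419 CPM per kb ± 0.110, with a range overlapping those of its neighbours Plcg2 and Plch1. The 10 genes together gave 9.14 CPM per kb ± 1.13 in control and 8.93 ± 1.26 in knockout, and the groups overlapped. Within that sum Plcb4 held 41.0% ± 11.3 in control and 23.6% ± 2.90 in knockout. Plch2 held 0.427% ± 0.108 of the sum in control and 4.64% ± 0.568 in knockout.

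**Figure D1:**
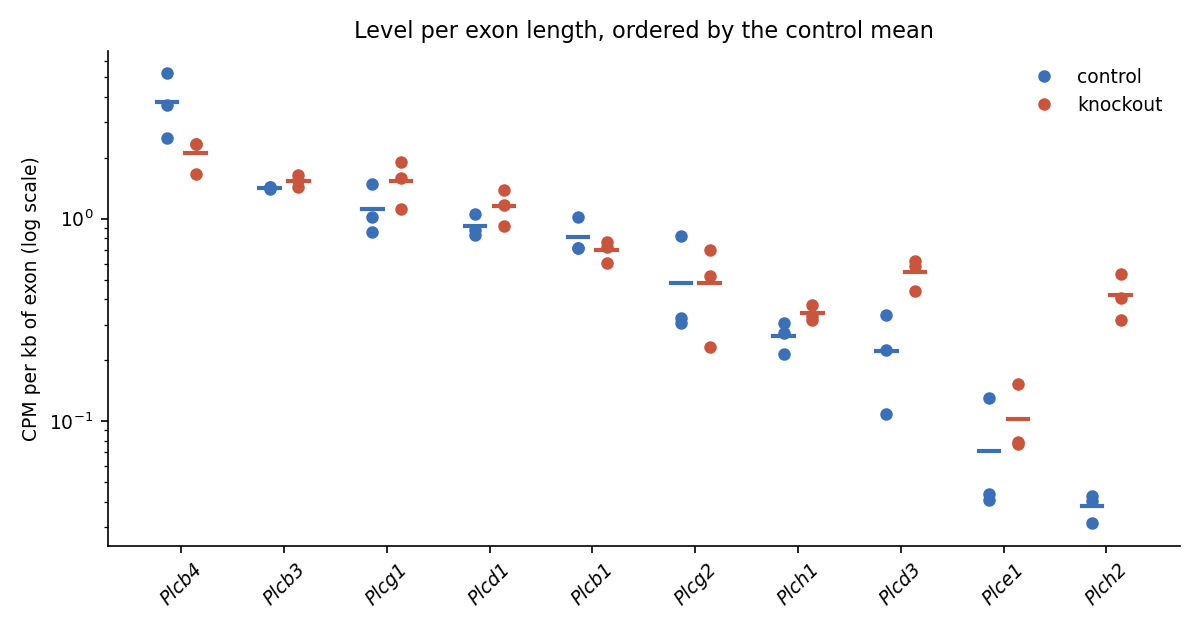
Level of the 10 phospholipase C genes as CPM per kb of exon on a log axis, ordered by the control mean, with 1 point per library and a line at each group's mean (control blue, knockout red). Plcb4 lies highest in both groups, and Plch2 goes from 0.0382 CPM per kb in control to 0.419 in knockout.

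Plch2 encodes phospholipase C eta 2, a calcium-sensitive enzyme best known from neurons. Its counts were 11, 8 and 7 in the controls against 162, 115 and 96 in the knockouts. Normalised, the controls were at 0.346, 0.329 and 0.254 CPM and the knockouts at 4.34, 3.28 and 2.57 CPM. Every knockout library lay far above every control library, and the lowest knockout value exceeded the highest control value many times over. Exact 95% Poisson intervals, which cover counting error only, reached up to 0.648 CPM in the controls and down to 2.09 CPM in the knockouts. The means were 0.310 CPM ± 0.0488 (SD, n = 3) and 3.40 CPM ± 0.889, a ratio of 10.97, and 9.81 against the male control alone. On the log2 scale the difference was 3.44 (standard error, SE, 0.35). It ranked 12 by log2 fold change and 15 by p-value among the 13115 tested genes. The log2 fold change lay between 3.22 and 3.60 in the 6 fits that each left out 1 library.

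The strand columns show whether the antisense gene that overlaps Plch2 takes part in these counts. In GENCODE M21 the antisense gene Gm10564 shares 189 bases of exon with Plch2. Gm10564 was listed at 0 in every library, both without regard to strand and summed over both strands, and a count of 0 allows up to 3 counts. Plch2 had 9 forward and 17 reverse counts over the 3 controls and 196 forward and 177 reverse counts over the 3 knockouts, so the knockout counts lay on both strands in near-equal number, as in a library that does not keep strand. The counts of both strands summed to exactly the unstranded count, 399 over the 6 libraries, so none was set aside as ambiguous. The log2 difference was 4.02 on the forward strand and 2.96 on the reverse strand, the controls holding few counts on either strand.

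Markers of other cell types were read beside Plch2. The 15 islet markers all had counts in every library, and their summed level was 368 to 483 CPM in control and 254 to 948 CPM in knockout. Islet markers ran in the same order as Plch2 across the knockouts, from 948 CPM in replicate 1 to 684 in replicate 2 and 254 in replicate 3. Most of that sum came from Ins2, the insulin gene, which was at 266, 279.6 and 203 CPM in the controls against 507, 384 and 134 CPM in the knockouts. Chga, a granule protein of endocrine cells, was at 20.3, 15.2 and 15.6 CPM in the controls against 55.6, 45.3 and 16.6 CPM in the knockouts, so knockout replicate 3 was below every control for Ins2 but not for Chga. The summed level of 18 stromal, endothelial and nerve markers was 35.1 to 169 CPM in control and 51.1 to 185 in knockout, that of 20 leukocyte markers 30.5 to 222 and 30.7 to 150, and that of 10 duct markers 218 to 250 and 202 to 299. The 10 tuft cell markers summed to 1.60 to 5.32 CPM and 2.97 to 6.11, with Gng13 at 0 in all libraries. These 5 ranges overlapped between the groups. Of single marker genes, 22 had an unadjusted p under 0.05 and 0 were called in edgeR, nor was any called with sex as a covariate. The unadjusted share ran from 0% of stromal, endothelial and nerve markers to 70% of duct markers, against 16.7% of all tested genes. With the replicate block, 17 were called, against 5.99% of all tested genes. They were 5 of 15 tested acinar, 6 of 10 duct, 1 of 15 islet and 5 of 18 leukocyte markers. In that blocked fit the acinar markers Cela2a, Gp2, Cuzd1 and Ptf1a were lower and Rbpjl higher in knockout. Among duct markers Krt7, Spp1, Epcam and Pkhd1 were higher and Krt19 and Muc1 lower, the islet marker Pcsk2 was higher, and among leukocyte markers Adgre1, C1qa, C1qb and C1qc were higher. The groups overlapped in CPM for Ptf1a, Krt7, Pkhd1, Pcsk2, Adgre1, C1qa, C1qb and C1qc. For Ptf1a the ratio to the male control was 0.985, and the log2 fold change with sex as a covariate was -0.02 (SE 0.31). The ratios to the male control were 1.28 for Krt7, 1.12 for Pkhd1 and 1.77 for Pcsk2. They were 2.78 for Adgre1, 1.67 for C1qa, 1.28 for C1qb and 1.56 for C1qc. The part of other cell types in the Plch2 values was not tested.

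**Figure D2:**
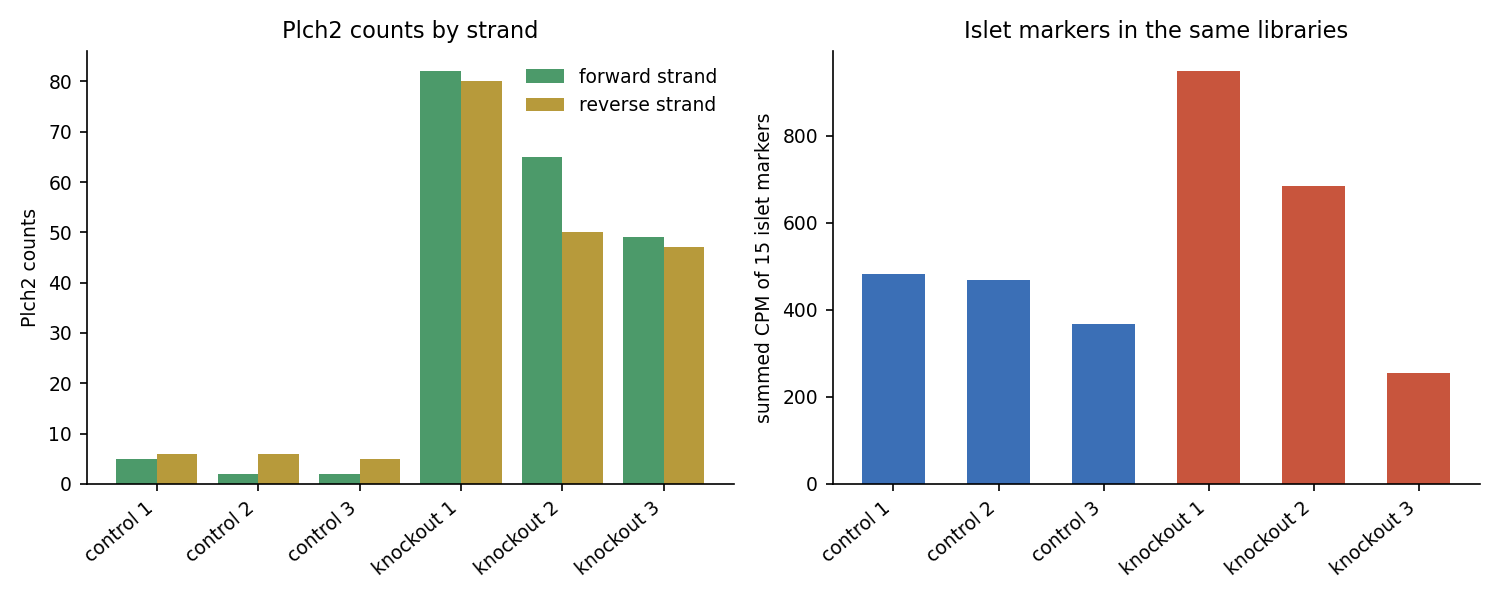
Left, Plch2 counts in each library by strand column (forward green, reverse yellow). Right, the summed CPM of 15 islet markers in the same libraries (control blue, knockout red). The 3 knockout libraries hold 96 to 162 counts of Plch2 against 7 to 11 in control, and knockout replicate 3 has the lowest summed islet level of all 6.

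The promoter of Plch2 holds less CpG than the most upstream window of any other member. RefSeq windows from 250 bases before to 50 bases after each annotated start, on build GRCm38.p6, were found for all 10 members and gave 14 windows. The submitters' processing notes name build GRCm39, so these coordinates do not apply to the count tables. Both Plch2 windows are shown because the gene stands out among the members, with the first window of Plcb4, the most abundant member, for contrast. They lie at chr4:155019379-155019678 (minus strand), chr4:155010976-155011275 (minus strand) and chr2:135659297-135659596 (plus strand). Each is printed 5′ to 3′ in the direction of transcription, and capitals mark CpG dinucleotides.
Plch2 upstream start: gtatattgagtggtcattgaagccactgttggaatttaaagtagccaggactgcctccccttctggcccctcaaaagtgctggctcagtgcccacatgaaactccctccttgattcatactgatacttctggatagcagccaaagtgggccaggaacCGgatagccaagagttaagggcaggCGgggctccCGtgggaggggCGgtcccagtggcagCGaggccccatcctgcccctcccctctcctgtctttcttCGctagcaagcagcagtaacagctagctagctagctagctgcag
Plch2 downstream start: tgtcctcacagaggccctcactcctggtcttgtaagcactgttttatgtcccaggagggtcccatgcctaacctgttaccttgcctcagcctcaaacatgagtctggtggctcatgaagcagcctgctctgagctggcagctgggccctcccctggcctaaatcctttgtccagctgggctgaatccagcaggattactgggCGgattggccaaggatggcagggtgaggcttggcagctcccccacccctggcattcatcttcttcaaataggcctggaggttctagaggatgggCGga
Plcb4 upstream start: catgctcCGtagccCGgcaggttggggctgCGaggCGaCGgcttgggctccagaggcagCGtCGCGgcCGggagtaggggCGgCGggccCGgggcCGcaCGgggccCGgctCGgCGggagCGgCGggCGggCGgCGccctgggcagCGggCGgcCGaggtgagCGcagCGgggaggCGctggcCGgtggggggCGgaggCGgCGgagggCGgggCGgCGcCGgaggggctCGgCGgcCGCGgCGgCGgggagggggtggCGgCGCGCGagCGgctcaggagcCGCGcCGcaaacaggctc

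The upstream Plch2 window holds 6 CpG and the downstream one 2, against 50 in the Plcb4 window. The ratio of observed to expected CpG was 0.25 and 0.0812 in the Plch2 windows and 1.03 in that of Plcb4. The most upstream windows of the other 9 members lay between 0.545 (Plch1) and 1.03 (Plcb4), while the second window of Plcb4 was as low as 0.204. Over all 32851 windows of the table the median was 0.384, and 36.1% of windows had a lower ratio than the upstream Plch2 window. The GC box GGGCGG, on either strand, was in both Plch2 windows and in 10 of the 14 windows of the members, against 35.7% of all windows. The TATA box TATAAA was in none of the 14, against 13.6%. The E-box CANNTG was in 9, against 72.3%, and CCAAT in 4, against 37.4%. These matches are descriptions of letters, the counts do not show which start was used, and windows of 1 gene share their source.

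Plch1 is the other eta enzyme. It had 2.65, 1.85 and 2.36 CPM in the controls against 2.87, 2.74 and 3.22 CPM in the knockouts. The knockout libraries lay just above the controls. The log2 fold change was 0.36 (SE 0.24), and the knockout mean was 1.11 times the male control. The difference between the 2 genes' changes was not tested.

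The beta enzymes, which are switched on by Gq-class G proteins, are those that serve secretagogue receptors. Plcb4 had 22.3, 32.7 and 46.9 CPM in the controls against 20.9, 21.01 and 14.9 CPM in the knockouts. The knockouts lay below the controls, but control replicate 1 was close to knockout replicates 1 and 2, and the controls spread widely. The means were 33.98 CPM ± 12.3 (SD, n = 3) and 18.9 CPM ± 3.50, a log2 fold change of -0.84 (SE 0.28). Against the male control the ratio was 0.847, and with sex as a covariate the log2 fold change was -0.24 (SE 0.26). Without control replicate 1 it was -1.09 and without control replicate 3 it was -0.54. Plcb4 was not called among all genes, with an adjusted p of 0.199 in edgeR, but it was called without control replicate 1 (adjusted p 0.0302 in the same test).

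Plcb3 varied little. It had 9.73, 9.94 and 9.92 CPM in the controls against 11.4, 10.8 and 9.98 CPM in the knockouts. The groups did not overlap, by a margin far smaller than the spread of the knockouts, and the log2 fold change was 0.12 (SE 0.12). Plcb1 had 7.97, 7.93 and 11.3 CPM in the controls against 8.09, 6.68 and 8.50 CPM in the knockouts. Its groups overlapped, and its log2 fold change was -0.22 (SE 0.18), which became 0.20 when library totals replaced TMM factors. Neither gene was called.

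The gamma enzymes are switched on by receptor and cytoplasmic tyrosine kinases, and Plcg2 is abundant in B cells and other blood cells. Plcg1 had 11.7, 6.74 and 7.96 CPM in the controls against 14.9, 12.5 and 8.74 CPM in the knockouts. The groups overlapped, and the log2 fold change was 0.45 (SE 0.26), with a knockout mean 1.03 times the male control. Its strand columns summed to 2405 counts against 2072 without strand. In GENCODE M21 its exons overlap those of Zhx3 over 379 bases and of the antisense gene Gm27206 over 248 bases, and reads in an overlap of opposite strands are not assigned when strand is ignored.

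Plcg2 had 3.53, 1.31 and 1.38 CPM in the controls against 3.00, 0.999 and 2.23 CPM in the knockouts. It was high in replicate 1 of both groups and did not part them, with a log2 fold change of -0.00427 (SE 0.51). This was 0.60 without control replicate 1 and -0.76 with sex as a covariate, and the knockout mean was 0.588 times the male control. The summed leukocyte markers followed a similar order, with 222, 49.8 and 30.5 CPM in the controls against 150, 30.7 and 94.6 CPM in the knockouts. Ptprc, the pan-leukocyte antigen, had 949, 63 and 36 counts in control and 451, 69 and 71 in knockout. The part of blood cells in the Plcg2 values was not tested.

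The delta enzymes are highly sensitive to calcium. Plcd3 had 1.13, 0.370 and 0.763 CPM in the controls against 1.98, 1.48 and 2.09 CPM in the knockouts, from 9 to 36 counts in control and 52 to 78 in knockout. Every knockout lay above every control. The log2 fold change was 1.28 (SE 0.44), the second largest among the members, and the knockout mean was 1.63 times the male control. With sex as a covariate the log2 fold change was 0.71. Plcd3 was not called, with an adjusted p of 0.206 in edgeR and 0.0510 with the replicate number as a block.

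Plcd1 had 3.24, 2.71 and 2.58 CPM in the controls against 4.29, 3.60 and 2.84 CPM in the knockouts, with overlapping groups and a log2 fold change of 0.33 (SE 0.23). Plce1, which is controlled by Ras-family proteins, had 2.08, 0.698 and 0.654 CPM in the controls against 2.44, 1.26 and 1.23 CPM in the knockouts. Replicate 1 was the highest of its group for both genes. The log2 fold change of Plce1 was 0.51 (SE 0.53). It was 1.25 without control replicate 1 and -0.34 with sex as a covariate, and the knockout mean was 0.790 times the male control.

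**Figure D3:**
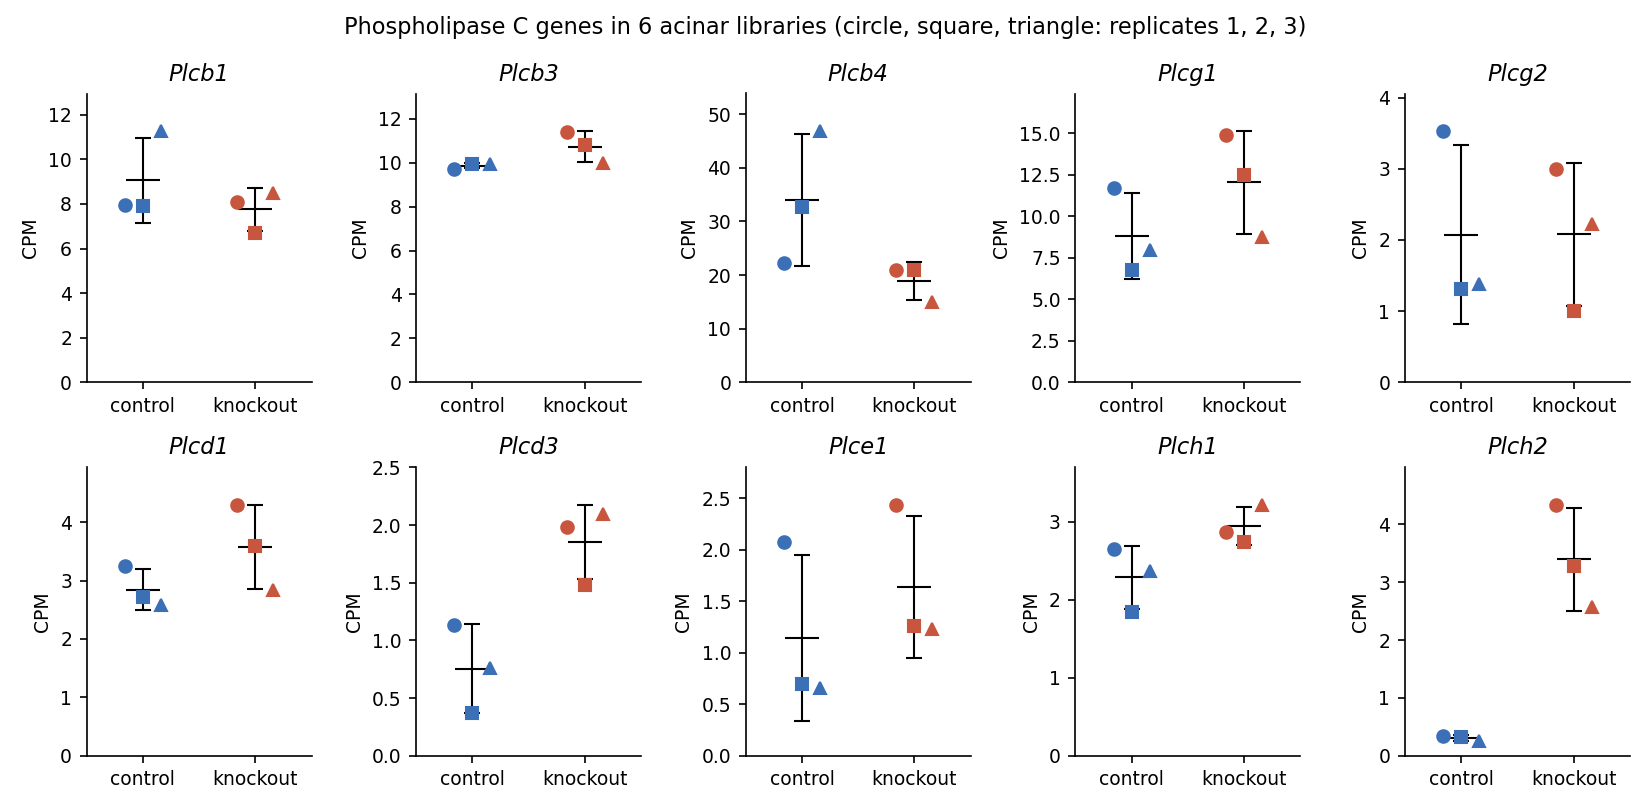
CPM of each of the 10 members in each library (control blue, knockout red; circle, square and triangle are replicates 1, 2 and 3; the bar is the mean with 1 SD, n = 3). Plch2 has the largest ratio of the 10, from 0.310 to 3.40 CPM on average, and control replicate 1 is the highest control in 7 of the 10 genes.

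Counted over the family, 8 of 10 members had a higher mean CPM in knockout and 2 a lower one, with Plcg2 counted as higher at a ratio of 1.0006. By log2 fold change 7 were positive and 3 negative, against 6866 positive and 6249 negative among all tested genes. The edgeR quasi-likelihood test called 1 of 10 members, Plch2, against 0.945% of all tested genes, and with the replicate block it again called 1, against 5.99%. Groups did not overlap for 5 members, namely Plcb3, Plcb4, Plcd3, Plch1 and Plch2, against 22.9% of all tested genes. Since the contrast brought the family into view, nothing is read from these shares. With sex as a covariate 0 members were called in edgeR and 1 had an unadjusted p under 0.05. The log2 fold change of Plch2 was then 3.28 (SE 0.56; adjusted p 0.117 in edgeR's test), resting on 1 male control. All 10 passed the filter on low counts, Plch2 and Plcd3 only through the knockout libraries. The median log2 fold change of the 10 was 0.34 and that of all tested genes 0.02. Scaling by library totals instead of TMM factors took the median of all genes from 0.02 to 0.43, and under that scaling Plcb1 and Plcg2 had positive log2 fold changes while Plcb4 stayed negative at -0.39.

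**Figure D4:**
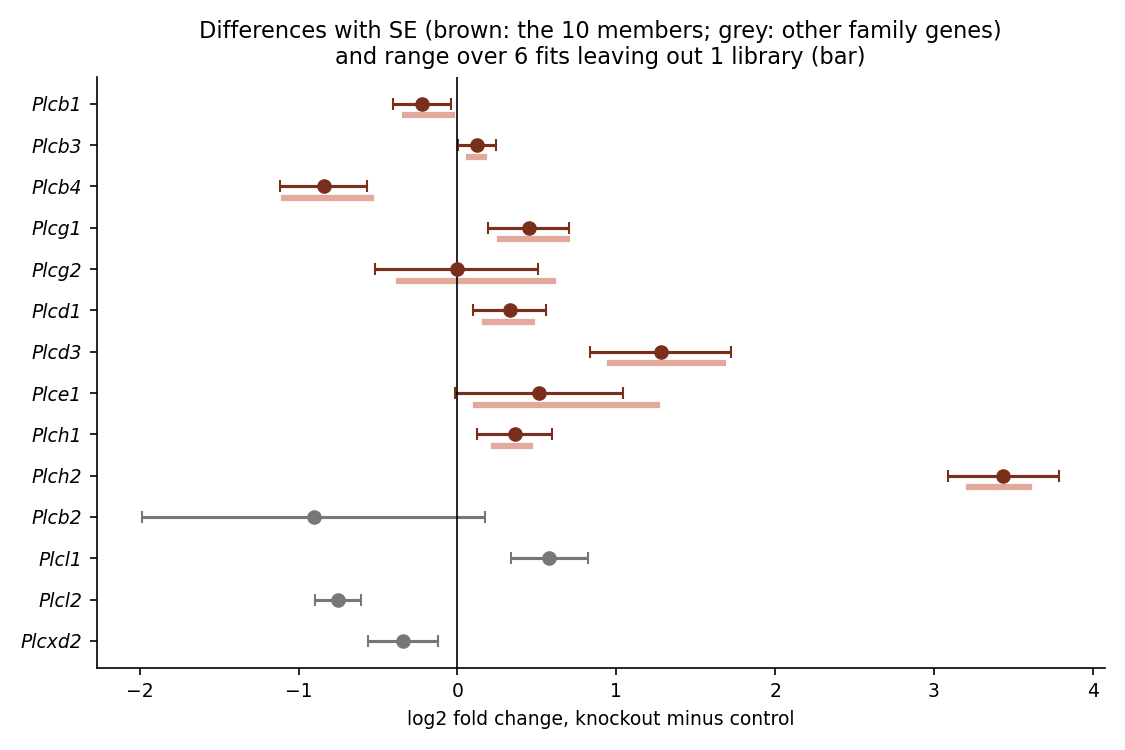
Log2 fold change (knockout minus control) of the 10 members (brown) and of 4 other tested family genes (grey) with 1 standard error, and below each member the range over 6 fits that each left out 1 library. Plch2 stands at 3.44, and the range of Plcg2 spans 0.

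Phospholipase C genes outside the 10 were tested in the same contrast. Of 8 such genes 4 passed the filter on low counts, with a median log2 fold change of -0.55 against 0.02 for all genes. Plcl2, a phospholipase C-like protein without enzyme activity, was abundant. It had 19.5, 20.3 and 20.4 CPM in the controls against 11.2, 10.4 and 14.1 CPM in the knockouts. The controls lay close together and every knockout lay below them. The means were 20.1 CPM ± 0.463 (SD, n = 3) and 11.9 CPM ± 1.99, a log2 fold change of -0.75 (SE 0.15), and the ratio to the male control was 0.608. Plcl2 missed the threshold with an adjusted p of 0.0535 in edgeR and passed it with the replicate block (0.0103) and without control replicate 1 (0.0381). That was the only 1 of the 6 fits leaving out 1 library that called it, and 8 of 21 alternative fits did. With sex as a covariate its adjusted p in edgeR was 0.285. With library totals the log2 fold change was -0.34 (adjusted p 0.191 in edgeR).

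Plcl1, the other inactive relative, had 1.98, 3.08 and 3.34 CPM in the controls against 3.65, 4.74 and 4.16 CPM in the knockouts, with every knockout above every control. Its log2 fold change was 0.58 (SE 0.24; adjusted p 0.280 in the same edgeR test). With the block its adjusted p in edgeR was 0.129. The difference between Plcl1 and Plcl2 was not tested. Plcxd2 had a log2 fold change of -0.34 (SE 0.22) and Plcb2 of -0.91 (SE 1.08), neither called. Plcb2, a blood cell form, had 111 counts in control replicate 1, 56 in knockout replicate 1 and 8 to 16 in the other 4 libraries. Plcd4, Plcz1, Plcxd1 and Plcxd3 had too few counts to test. Plcz1, the sperm form, was at 0 in all 6 libraries. Plcd4 and Plcxd1 had 19 and 8 unstranded counts over the 6 libraries but 192 and 305 when the strand columns were summed, and in GENCODE M21 their exons overlap those of Zfp142 over 2101 bases and Gtpbp6 over 1116 bases.

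Few genes acting before and after the phospholipases were called, as was so for all tested genes. Together with the other family genes, 5 lists held 116 genes, of which 101 were tested. The edgeR quasi-likelihood test called 2 of them, Ocrl higher and Ahcyl2 lower, which is 1.98% against 0.945% of all genes. With the replicate block it called 6, 3 higher and 3 lower, which is 5.94% against 5.99%. Scaled by library totals it called 13, all higher. Median log2 fold changes were -0.14 for 27 receptors and G proteins, 0.10 for 26 genes of phosphoinositide supply, 0.04 for 19 of the IP3 branch and 0.01 for 25 of the diacylglycerol branch, against 0.02 for all genes. An unadjusted p under 0.05 was reached by 20.8% of the 101 genes and by 16.7% of all tested genes.

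Ocrl encodes a phosphatase that consumes PIP2, the substrate of the phospholipases, and lies on chromosome X. It had 6.30, 5.63 and 5.89 CPM in the controls against 10.3, 10.4 and 10.4 CPM in the knockouts. The knockouts were all higher, and the male control did not stand apart from the female ones. The mean of Ocrl rose from 5.94 ± 0.339 (SD, n = 3) to 10.4 CPM ± 0.0575. On the log2 scale this was 0.80 (SE 0.13; adjusted p 0.0265 in edgeR). Ahcyl2 encodes a relative of IRBIT, a protein that binds the IP3 receptor. It had 20.5, 22.3 and 20.0 CPM in the controls against 11.6, 13.9 and 12.6 CPM in the knockouts, with the groups well apart. The mean of Ahcyl2 fell from 20.9 ± 1.17 to 12.7 CPM ± 1.18, which is -0.72 on the log2 scale (SE 0.13; adjusted p 0.0413 in the same edgeR test). Both calls were lost in 5 of the 6 fits that left out 1 library and with sex as a covariate (adjusted p 0.246 for each in edgeR's test). Without control replicate 1 both were kept, and the adjusted p lay between 0.0834 and 0.199 in the other 5 edgeR fits. With library totals the log2 fold change of Ahcyl2 was -0.31 (adjusted p 0.156 in edgeR), and with reverse-strand counts the adjusted p of Ocrl in edgeR was 0.107.

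The genes called with the block and not in the main fit, besides Plcl2, were Chrm1, Rgs2 and Ip6k2. Of 21 alternative fits, the blocked one included, 6 called Chrm1, 1 called Rgs2 and 3 called Ip6k2. Chrm1, a muscarinic acetylcholine receptor, had 1.95, 4.40 and 5.02 CPM in the controls against 0.348, 1.88 and 0.402 CPM in the knockouts. It was lower in every knockout, narrowly so for knockout replicate 2, and its adjusted p in edgeR's test was 0.231 without and 0.0141 with the block. Rgs2, which ends Gq signals by speeding GTP hydrolysis, ran from 2.14 to 5.64 CPM in control and from 3.37 to 19.7 CPM in knockout, with overlapping groups (adjusted p 0.436 without and 0.0430 with the block in edgeR's test). Ip6k2, an inositol phosphate kinase, averaged 12.4 CPM ± 2.17 (SD, n = 3) among controls and 17.9 CPM ± 1.77 in knockout (adjusted p 0.150 without and 0.0396 with the block in edgeR's test). Sex as a covariate took the log2 fold change of Chrm1 from -2.11 to -1.16 (SE 0.88). That of Rgs2 went from 1.37 to 0.94 (SE 1.14) and that of Ip6k2 from 0.53 to 0.79 (SE 0.20). Ratios of the knockout mean to the male control were 0.450 for Chrm1, 1.92 for Rgs2 and 1.73 for Ip6k2. Cckar, the cholecystokinin receptor of acinar cells, was not called (adjusted p 0.178 without and 0.0544 with the block in edgeR), nor was the Gq subunit Gnaq (0.919 and 0.871).

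**Figure D5:**
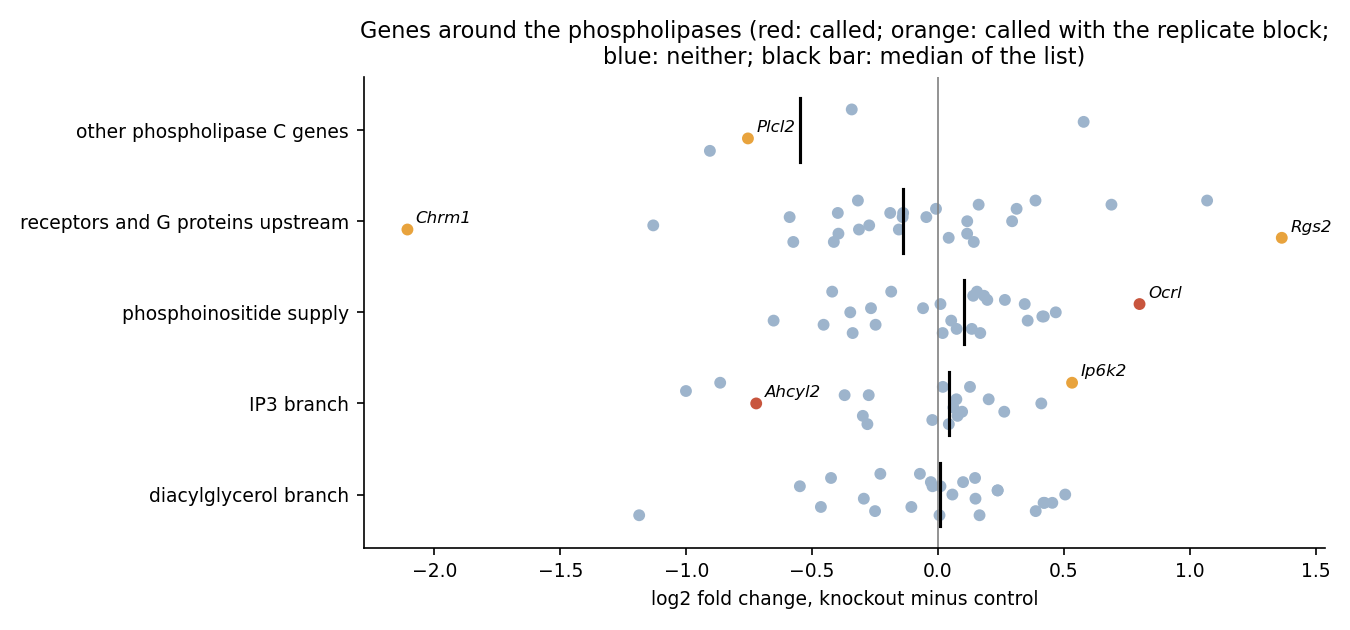
Log2 fold change (knockout minus control) of the 101 tested genes in 5 lists around the phospholipases, 1 point per gene, with the median of each list as a black bar. Ocrl and Ahcyl2 (red) were called in the main fit. Plcl2, Chrm1, Rgs2 and Ip6k2 (orange) were called with the replicate block and not in the main fit.

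The genes whose values over the 6 libraries most resembled those of Plch2 were Prss3, Car9, Rec8, Gpx8 and Meg3. Likeness was the root-mean-square difference between log2 CPM profiles, each centred on its own mean over the 6 libraries, among 10306 genes with a mean of at least 1 CPM. It was 0.30 for Prss3, 0.37 for Car9, 0.45 for Rec8, 0.51 for Gpx8 and 0.53 for Meg3. Such a profile needs a difference between the groups near that of Plch2, and the ratios of knockout to control means were 7.35, 8.75, 5.91, 11.3 and 5.06 in that order. Prss3 is a trypsinogen gene with near-identical copies, so its counts are uncertain.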

How the data were processed

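RNA was sequenced from 3 control and 3 Trip12 knockout acinar preparations. The authors deposited raw counts per gene, with 1 unstranded column and 1 column per strand. Per the submitters' processing notes, STAR 2.7.10a and build GRCm39 (mm39) were used, and the annotation is not given in the sources used here. The 4 rows outside genes, 36.9% to 45.7% of reads, were left out of library sizes and tests. Of the counts of both strands 50.1% to 50.3% were forward, and unstranded counts were used. Symbols were found for 52081 of 55414 identifiers (94.0%), and exon lengths and overlaps came from GENCODE M21 (build GRCm38), without coordinates. Promoter windows are RefSeq's.

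Genes passing filterByExpr (13115) were fitted with edgeR 4.0.16 in R 4.3.3, with TMM factors, the robust quasi-likelihood test and Benjamini-Hochberg adjustment over all of them. A gene is called at an adjusted p under 0.05. The standard error is the log2 fold change divided by the square root of F, and a prior count of 2 entered log2 CPM values. The scripts were tested on simulated data. DESeq2 1.42.0, limma 3.58.1 and other scalings, filters, strands and samples were alternatives.

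Replicate numbers 1 to 3 recur in both groups, and the labels do not say what they stand for. Deviations from the group means correlated across genes at 0.63, 0.455 and 0.285 in same-numbered pairs and between -0.496 and 0.21 in others, so the numbers were taken as pairs, and a fit with the number as a block stands beside results whose call it changes. This choice rests on the same data and not on the labels, so calls made only with the block depend on it. A block chosen in this way can make p-values too small. Pairs 2 and 3 set a female control beside a male knockout, so the block does not account for sex.

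Members and lists were chosen with earlier results of these data known. The named genes are the members, pathway and marker list genes called without the block, up to 5 per list called only with it, Trip12, and the 5 genes most like Plch2. Cckar, Gnaq, Ptprc, Ins2, Chga, the family genes that were not called and, beyond the limit of 5, 1 duct marker were named after their values were seen. Of the marker genes called with the block, 1 is not reported here.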

Additional observations from a re-analysis of the deposited data

How the results depend on the processing

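Plch2 was higher in knockout in each of 20 alternative fits and was called in all but that with sex as a covariate. It was not tested where at least 10 counts in every library were asked for. These fits reuse the libraries by which Plch2 was picked, so they show only how its values depend on the processing. Among the other members, Plcb4 was also called without a filter (adjusted p 0.000133), with DESeq2's Wald test (0.0346) and in the blocked fit without pair 1 (0.0481). The order of the members per kb in control was kept with library totals, and with the longest transcript as length Plcb1 and Plcd1 changed places. In knockout, with the longest transcript as length, Plch2 passed Plcg2 and Plcg1 passed Plcb3, so the order given for knockout holds only per kb of exon.

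The number of genes called (124, 49.2% of them higher) was 1519 with library totals (94.9% higher), 850 without a filter, 210 where every library had to hold 10 counts or more, 594 with DESeq2, 785 with the replicate block and 21 with sex as a covariate. It ran from 20 to 461 in fits without 1 library, in order 461, 20, 54 for control replicates 1 to 3 and 27, 88, 24 for knockout replicates 1 to 3, and from 100 to 832 in blocked fits without 1 pair (396, 100 and 832 for pairs 1 to 3). The number of pathway genes called (2) was 13 with library totals, all higher, 7 without a filter, 5 with DESeq2, 6 with the replicate block, 1 with reverse-strand counts and 0 with sex as a covariate, where 14 had an unadjusted p under 0.05. It ran from 0 to 4 in fits without 1 library, being 0 without control replicates 2 and 3 and knockout replicates 1 and 3 (13 to 17 with an unadjusted p under 0.05), 1 without knockout replicate 2 and 4 without control replicate 1, and from 1 to 5 in blocked fits without 1 pair. The causes were not tested. The blocked fits without a pair were chosen after seeing the data. With all 6 libraries, the block changed no call among the members. At 7 to 11 counts, the control level of Plch2 is known only within its Poisson interval.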
